A study of Mus musculus with 6 samples.

Results

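The *Sprr* genes encode the small proline-rich proteins. They were taken as every row of the deposited expression table whose gene symbol begins with Sprr followed by a digit, which gave 14 of the 17784 genes listed: *Sprr1a* and *Sprr1b*, 10 *Sprr2* genes (*Sprr2a1*, *Sprr2a2*, *Sprr2a3*, *Sprr2b*, *Sprr2d*, *Sprr2e*, *Sprr2f*, *Sprr2h*, *Sprr2i* and *Sprr2k*), *Sprr3* and *Sprr4*. The members were chosen by name, but the family was selected on its higher expected counts and TPM in Ptch1Prrx1 than in control samples, that is, on the difference between the mutant and control samples in these same data. Its values in that contrast are therefore a description, and no p value is given for a member.

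Small proline-rich proteins are short, repetitive precursors of the cornified cell envelope, the layer of crosslinked protein that replaces the plasma membrane in terminally differentiated squamous epithelia. Transglutaminases join their glutamine and lysine residues to each other and to partners such as involucrin and loricrin. The genes lie side by side in the epidermal differentiation complex, and members of the family are known to be induced in stressed, wounded or keratinizing epithelia, while the healthy corneal epithelium is a non-keratinizing tissue.

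RNA was sequenced in bulk from corneal epithelial cells that had been detached with EDTA, in 3 samples from *Prrx1-CreERT;Ptch1f/f* mice (Ptch1Prrx1) and 3 samples from controls, whose genotype the labels give only as ctrl and WT. The labels give an age of 10 weeks and 3 doses of tamoxifen over 2 months for both groups. The Cre recombinase of this line depends on tamoxifen and acts in keratocytes and other mesenchymal cells of the eye, so the deletion of *Ptch1*, the Hedgehog receptor, was directed at the stroma and not at the epithelium that was sequenced. The labels do not say whether each sample came from 1 animal or from several, so the spread between samples may be partly technical.

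The libraries held between 20296741 and 20625813 expected counts, the reads that the RSEM program assigned to genes. Markers of corneal epithelium were abundant in all of them, with *Krt12*, the cornea-specific keratin, at 786685, 757641 and 678253 normalized counts in the controls and 631290, 802080 and 643819 in Ptch1Prrx1. Normalized counts are counts scaled to a common library size. *Ptch1* had 517, 659 and 682 normalized counts in the controls and 390, 445 and 471 in Ptch1Prrx1, or -0.51 on the log2 scale (standard error 0.13, adjusted p = 0.0401 in edgeR's quasi-likelihood test with Benjamini-Hochberg adjustment), which was below the fold change required for a call. Ptch1Prrx1 replicate 1 stood apart from the other libraries on the first principal component (56.7% of the variance), at 53.8, with replicates 2 and 3 at 19.2 and 20.0 and the controls between -34.9 and -27.4. For this reason the family's values are given for each library and also without replicate 1.

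RefSeq lists 17 *Sprr* symbols on mouse chromosome 3, of which 14 are protein coding, and these 14 are the rows of the table. No other protein-coding gene lies between the first and the last of them. The 10 *Sprr2* genes come first, in the order of their letters, and *Sprr1b*, *Sprr3*, *Sprr1a* and *Sprr4* follow, with *Ivl*, the gene of involucrin, as the next neighbour. All 14 genes matched an entry among RefSeq promoter windows of build GRCm38.p6, which run from 250 bases before to 50 bases after the start of a gene. The submitters' notes name build mm9 for the alignment, so the coordinates printed here are those of the RefSeq table and not of the deposited data.

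The upstream 250 bases of the 3 genes that passed the filter on low counts, and of *Sprr2h*, an *Sprr2* gene with no stretch shared with its relatives, are shown because they carry the sequence features that divide the family. They are written 5′ to 3′ on the strand of the gene, and capitals mark the AP-1 site TGAGTCA, the TATA box TATAAA and the octamer ATGCAAA, each on either strand (the reverse complement of the octamer is TTTGCAT). The windows are chr3:92485882-92486131 (minus strand) for *Sprr1a*, chr3:92438780-92439029 (minus strand) for *Sprr1b*, chr3:92458721-92458970 (minus strand) for *Sprr3* and chr3:92385435-92385684 (plus strand) for *Sprr2h*.
Sprr1a: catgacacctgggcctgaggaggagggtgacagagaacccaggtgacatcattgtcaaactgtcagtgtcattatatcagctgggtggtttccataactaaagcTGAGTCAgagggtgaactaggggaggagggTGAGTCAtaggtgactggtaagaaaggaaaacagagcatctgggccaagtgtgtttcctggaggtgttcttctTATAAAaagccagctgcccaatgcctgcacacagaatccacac
Sprr1b: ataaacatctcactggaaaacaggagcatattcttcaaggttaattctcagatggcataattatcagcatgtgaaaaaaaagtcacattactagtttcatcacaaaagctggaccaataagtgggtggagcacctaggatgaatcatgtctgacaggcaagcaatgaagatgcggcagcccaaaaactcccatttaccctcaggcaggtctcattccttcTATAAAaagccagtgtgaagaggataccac
Sprr3: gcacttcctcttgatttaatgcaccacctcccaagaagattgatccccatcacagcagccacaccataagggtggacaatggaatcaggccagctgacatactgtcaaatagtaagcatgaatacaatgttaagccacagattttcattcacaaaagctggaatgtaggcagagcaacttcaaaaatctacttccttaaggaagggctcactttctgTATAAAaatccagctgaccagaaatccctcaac
Sprr2h: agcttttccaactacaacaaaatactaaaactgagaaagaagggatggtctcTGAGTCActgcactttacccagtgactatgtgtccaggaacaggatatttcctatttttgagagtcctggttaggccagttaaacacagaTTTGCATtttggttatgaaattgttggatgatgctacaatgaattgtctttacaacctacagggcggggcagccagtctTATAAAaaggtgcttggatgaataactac

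The AP-1 letters TGAGTCA or their reverse complement TGACTCA, which are bound by dimers of Fos and Jun proteins, were found in the windows of 8 of the 14 genes, against 5.17% of 27025 promoter windows of all genes. The TATA box was found in 10 of the 14, against 14.2% of all windows, and the octamer, which is recognized by POU-domain proteins, in 7 of the 14, against 4.59%. The ETS core CCGGAA (reverse complement TTCCGG) and the KLF letters GGGTGTG (reverse complement CACACCC) were in none of the 14 windows, against 15.2% and 7.85% of all windows. No 2 matches of different motifs overlapped in these windows. The windows are not independent of each other, since the genes are related copies and those of *Sprr2a1* and *Sprr2a2* are identical, and a match is a run of letters and not a measured binding site.

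The matches fell into a few patterns. *Sprr1a* held 2 AP-1 matches, at -146 and -116 from the start of the gene, and a TATA box at -43. *Sprr1b* and *Sprr3* held a TATA box, at -30 and -33, and none of the other motifs searched. In *Sprr2b*, *Sprr2d*, *Sprr2e*, *Sprr2f*, *Sprr2h*, *Sprr2i* and *Sprr2k*, an AP-1 match between -198 and -193 was followed by the octamer between -111 and -107, 86 to 90 bases downstream, and by a TATA box at -29. *Sprr2k* held a second AP-1 match, at -182. The windows of *Sprr2a1*, *Sprr2a2*, *Sprr2a3* and *Sprr4* held none of these letters, which says nothing of sequence outside them. The longest GENCODE M21 transcripts of the 3 *Sprr2a* genes were 2867 to 3003 bases, against 609 to 784 for the other *Sprr2* genes. The end of the *Sprr2a1* window resembled the stretch just before the TATA box of *Sprr2b*. The *Sprr2a* windows may therefore not be placed like those of the other *Sprr2* genes, and their lack of matches is not read as a difference. The AP-1 matches are printed below with 6 bases on each side and the match in capitals, to show how far the flanks are shared.
Sprr1a at -146: taaagcTGAGTCAgagggt
Sprr1a at -116: ggagggTGAGTCAtaggtg
Sprr2b at -195: gactctTGAGTCAcaagac
Sprr2d at -193: gctcacTGAGTCAcaggtc
Sprr2e at -193: gctcacTGAGTCAcaggtc
Sprr2f at -197: gaatatTGAGTCAcagtgc
Sprr2h at -198: ggtctcTGAGTCActgcac
Sprr2i at -193: gctcacTGAGTCAcaggac
Sprr2k at -196: gtcctcTGAGTCActgtac
Sprr2k at -182: tgtactTGACTCAgtgact
The flanks of *Sprr2d* and *Sprr2e* were identical, and the flanks of the 2 matches of *Sprr1a* differed from each other and from those of the *Sprr2* genes.

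**Figure D1:**
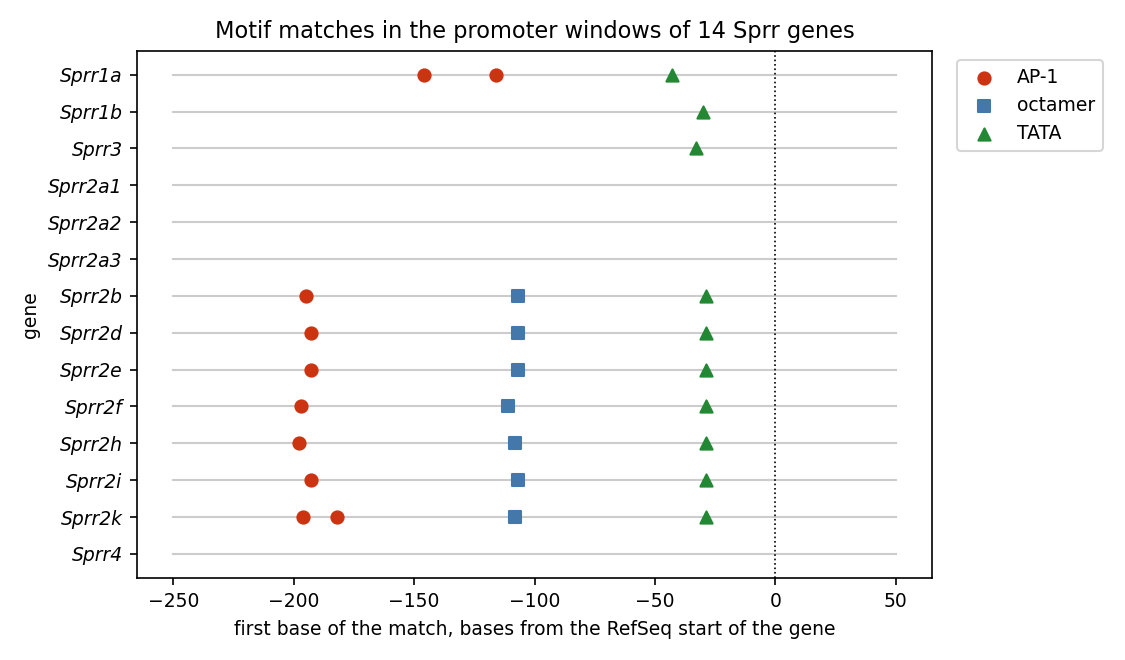
Motif matches in the promoter windows of the 14 *Sprr* genes, plotted by the distance in bases of the first letter of the match from the RefSeq start of the gene (dotted line). Red circles are AP-1 matches, blue squares octamers and green triangles TATA boxes, and 7 of the 10 *Sprr2* genes carry all 3 at nearly the same distances.

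*Sprr1a* (gene 20753) was the main *Sprr* gene of the control epithelium and remained the most abundant in the mutant. It had 871, 366 and 431 expected counts in control replicates 1, 2 and 3, and 20944, 8875 and 9886 in Ptch1Prrx1 replicates 1, 2 and 3. All 3 mutant libraries lay above all 3 controls, and control replicate 1 was the highest of the controls as replicate 1 was of the mutants. On the TPM scale of transcript levels, which corrects for gene length, *Sprr1a* stood at 120, 51.9 and 61.3 in the controls and 2872, 1268 and 1435 in Ptch1Prrx1, a mean of 77.7 ± 36.8 (SD, n = 3) against 1858 ± 882 (SD, n = 3). Ranked by TPM among all genes, it moved from ranks 1196, 3018 and 2590 in the controls to ranks 31, 98 and 82 in the mutants. The counts of the 3 mutant libraries together were 23.9 times those of the controls after scaling for depth, with a 95% interval of 22.7 to 25.1 that covers counting error only, as do all such intervals below. The fitted log2 fold change was 4.63 (standard error 0.48), and the ratio was 17.0 without replicate 1.

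*Sprr1b* (gene 20754), its close relative, was almost absent from the control libraries. It had 3, 5 and 2 expected counts there, and 7806, 1640 and 2923 in Ptch1Prrx1 replicates 1, 2 and 3. Every mutant library was far above every control. In TPM it stood at 0.40, 0.68 and 0.28 in the controls and 1029, 225 and 408 in Ptch1Prrx1, with means of 0.453 ± 0.205 and 554 ± 421 (SD, n = 3 in each group). The ratio of the summed counts was 1240 (95% interval 674 to 2587), and 690 without replicate 1. The fitted log2 fold change was 10.28 (standard error 0.94). Its rank by TPM went from 12711, 12236 and 13396 in the controls to 130, 576 and 313 in the mutants.

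The balance between the 2 *Sprr1* genes was therefore different in the 2 groups. On the TPM scale, *Sprr1b* amounted to 0.334%, 1.31% and 0.457% of *Sprr1a* in the controls, and to 35.8%, 17.8% and 28.4% in Ptch1Prrx1 replicates 1, 2 and 3. *Sprr1a* was above *Sprr1b* in each of the 6 libraries, and the ranges of the 2 genes did not overlap in either group. Of all *Sprr* expected counts, *Sprr1a* made up 98.6%, 95.8% and 97.0% in the controls and 69.3%, 83.8% and 76.8% in the mutants. The difference was filled mainly by *Sprr1b*, with 25.8%, 15.5% and 22.7% of the family's counts in the mutant libraries.

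**Figure D2:**
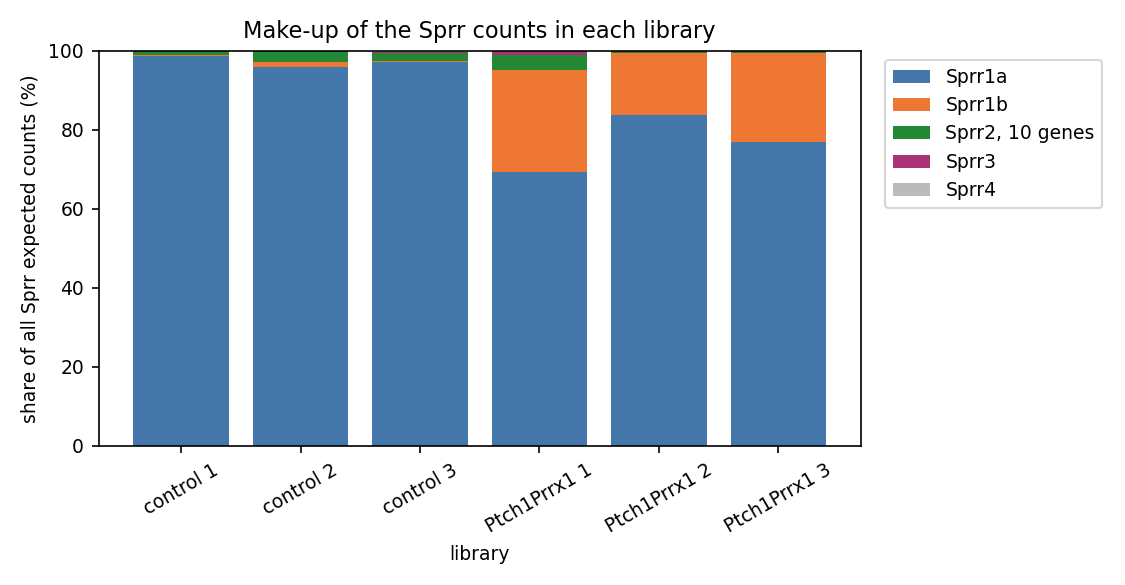
Share of all *Sprr* expected counts (%, vertical axis) taken by *Sprr1a*, *Sprr1b*, the 10 *Sprr2* genes, *Sprr3* and *Sprr4* in each of the 6 libraries (horizontal axis). *Sprr1a* takes at least 95.8% in each control library and 69.3% to 83.8% in the mutant libraries, where *Sprr1b* takes 15.5% to 25.8%.

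*Sprr3* (gene 20766), a component of envelopes in the oesophagus and other wet squamous epithelia, had 0, 0 and 1 expected counts in the controls and 343, 29 and 23 in Ptch1Prrx1 replicates 1, 2 and 3. The groups did not overlap, and replicate 1 was far above the other mutant libraries. Its TPM values were 0, 0 and 0.10 against 33.3, 2.96 and 2.38. The ratio of the summed counts was 396, with a wide interval of 70.7 to 15680 because the controls held a single count, and it was 78.6 (13.5 to 3163) without replicate 1. The fitted log2 fold change was 8.23 (standard error 1.86), a value that depends on the small count the model adds to groups near 0.

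*Sprr1a*, *Sprr1b* and *Sprr3* were the 3 members of 14 that passed the filter on low counts. All 3 met the rule for a call, an adjusted p of at most 0.05 in edgeR's quasi-likelihood test and a fold change of at least 2. *Sprr3* lost its call when any one control library was left out, with limma-voom and on the log2(TPM + 1) scale (7.78, 7.78 and 10.07 without control replicates 1, 2 and 3, 6.46 and 2.90). Among the 12999 genes that passed the filter, 2.34% were called higher by the same rule and 0.892% lower. DESeq2 gave an adjusted p for 5 members and called all 5, against 2.76% of the 13604 genes for which it gave one. The 5 included *Sprr1a* and *Sprr1b* but not *Sprr3*, and the rest were *Sprr2* genes that had not passed the filter above. Since the family was chosen for this contrast, and *Sprr1b* and *Sprr3* passed the filter through their mutant libraries alone, nothing is read from the comparison with all genes.

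The 10 *Sprr2* genes, which form the largest branch of the family in mouse, were at or near 0 in the controls and none of them passed the filter. Their summed expected counts were 8.99, 11 and 9.16 in the controls and 1116, 41.0 and 42.7 in Ptch1Prrx1 replicates 1, 2 and 3. All 3 mutant libraries were above the controls, but 93.0% of the mutant counts came from replicate 1 alone. Relative to the control mean, the sum was 114 times as high in replicate 1 and 4.24 and 4.43 times as high in replicates 2 and 3. The ratio over all libraries was 41.3 (95% interval 28.7 to 62.2), and it was 4.34 (2.84 to 6.93) without replicate 1. The fitted log2 fold change of the sum was 5.42 (standard error 1.57), which did not meet the rule for a call, while it did meet the rule when any one of the mutant libraries was left out, with 2.15, 5.95 and 5.96 without replicates 1, 2 and 3.

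**Figure D3:**
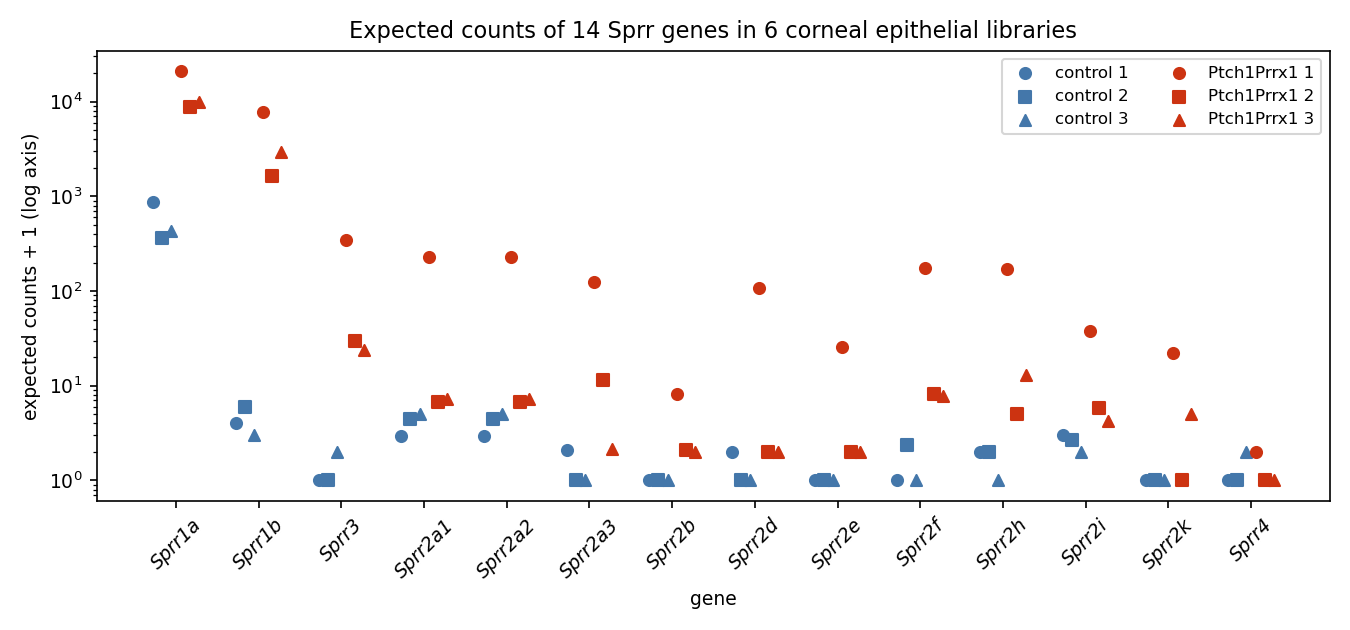
Expected counts plus 1 (log axis) of the 14 *Sprr* genes (horizontal axis) in 3 control (blue) and 3 Ptch1Prrx1 (red) libraries, with replicates 1, 2 and 3 as circles, squares and triangles. *Sprr1a* and *Sprr1b* are far above the controls in all 3 mutant libraries, whereas the *Sprr2* genes are far above the controls mainly in replicate 1.

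Within the *Sprr2* genes, those with the most counts in mutant replicate 1 were *Sprr2f* and *Sprr2h*, apart from the near-identical *Sprr2a* copies. *Sprr2f* had 0, 1.34 and 0 expected counts in the controls and 174, 7.13 and 6.76 in Ptch1Prrx1. *Sprr2h* had 1, 1 and 0 in the controls and 170, 4 and 12 in Ptch1Prrx1. Both were above every control in every mutant library, with ratios of 140 (33.4 to 7484) and 93.2 (25.5 to 776) over all libraries and 15.7 (3.22 to 895) and 12.1 (2.84 to 108) without replicate 1.

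*Sprr2d* had 1, 0 and 0 expected counts in the controls and 108, 1 and 1 in Ptch1Prrx1, so that mutant replicates 2 and 3 were no higher than control replicate 1 and the groups overlapped. *Sprr2a3* had 1.11, 0 and 0 against 125, 10.6 and 1.13, with replicate 3 barely above control replicate 1. *Sprr2i*, the *Sprr2* gene with the highest mean TPM in the controls, had 2, 1.66 and 1 against 36.4, 4.87 and 3.24, without overlap. Its ratio was 9.57 (3.51 to 28.5), and 2.63 (0.697 to 9.39) without replicate 1, an interval that includes no difference.

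*Sprr2b*, *Sprr2e* and *Sprr2k* had no count in any control library. *Sprr2b* had 7.13, 1.09 and 1 expected counts in Ptch1Prrx1, which is at least 3.08-fold higher when the controls are set to a floor of 3 counts over the group. *Sprr2e* had 24.4, 1 and 1, at least 8.81-fold higher, and *Sprr2k* had 21, 0 and 4, at least 8.35-fold higher, or at least 2.01-fold without replicate 1. *Sprr2k* overlapped the controls in replicate 2, and without replicate 1 both groups of *Sprr2b* and *Sprr2e* were at or under the floor, so that no fold is given.

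*Sprr2a1* and *Sprr2a2* had identical values in all 6 libraries, 1.94, 3.50 and 4.08 expected counts in the controls and 226, 5.67 and 6.27 in Ptch1Prrx1. In GENCODE M21 transcripts, 96.3% of the 50-base stretches of *Sprr2a1* and 96.5% of those of *Sprr2a2* occurred in another family member, and 61.1% of those of *Sprr2a3*. The values of these 3 genes are therefore uncertain as single genes. The ratio of *Sprr2a1* was 25.0 (12.7 to 50.4), and 1.90 (0.718 to 4.69) without replicate 1, where the interval includes no difference. Without *Sprr2a1* and *Sprr2a2*, the *Sprr2* sum was 5.11, 4 and 1 in the controls and 665, 29.7 and 30.1 in Ptch1Prrx1, a ratio of 71.9 (39.3 to 152) and of 8.94 (4.61 to 19.9) without replicate 1.

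For the rest of the family, sequence sharing was low. *Sprr2b*, *Sprr2i*, *Sprr2e*, *Sprr2d* and *Sprr2f* shared 14.1%, 10.6%, 10.2%, 4.27% and 0.714% of their 50-base stretches with other members. *Sprr1a*, *Sprr1b*, *Sprr2h*, *Sprr2k*, *Sprr3* and *Sprr4* shared none, within the limits of that annotation. Some reads were still divided between *Sprr1a* and *Sprr1b* in Ptch1Prrx1 replicates 1 and 3. *Sprr1a* had 20943.61 and 9885.65 expected counts there and *Sprr1b* 7806.39 and 2923.35, while their sums were whole, at 28750 and 12809. How many reads were divided is not known from these values. In the family as a whole, 32 of the 84 values were more than 0.005 from a whole number.

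**Figure D4:**
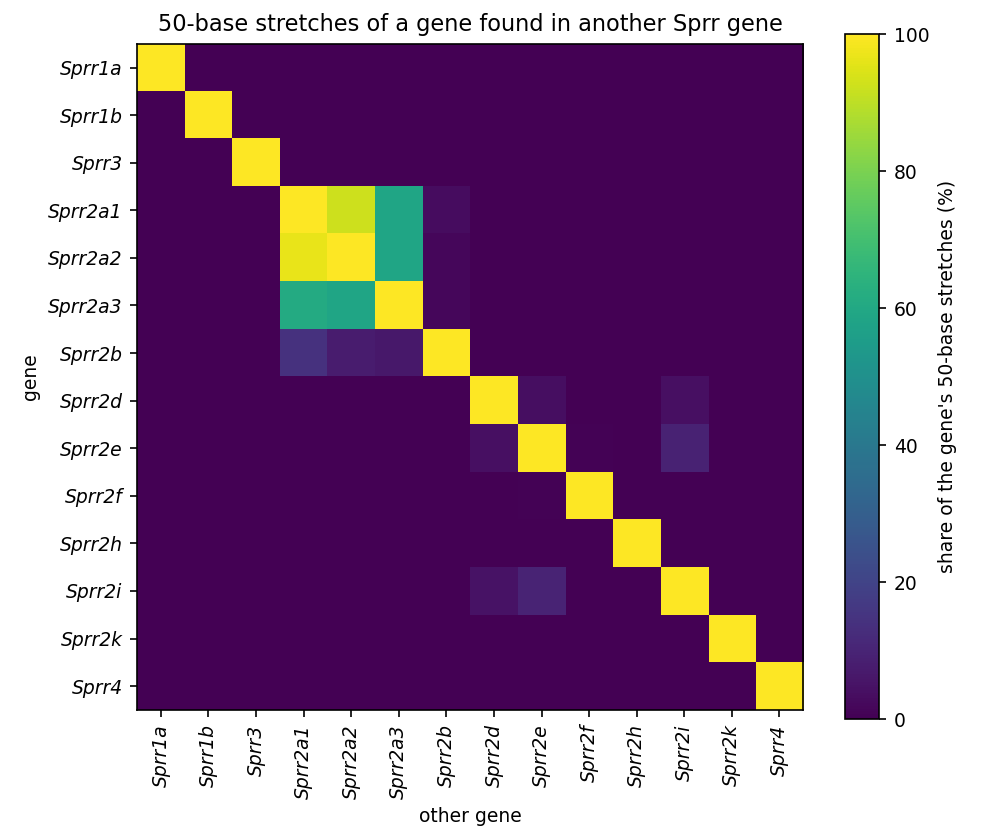
Share of the 50-base stretches of each *Sprr* gene (rows, %) that also occur in each other gene of the family (columns), from GENCODE M21 transcripts, on a colour scale from 0 to 100%. The block of *Sprr2a1*, *Sprr2a2* and *Sprr2a3* stands out, and the rows of *Sprr1a*, *Sprr1b* and *Sprr3* are at 0 apart from the gene itself.

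*Sprr4*, which lies at the *Ivl* end of the family, had 0, 0 and 1 expected counts in the controls and 1, 0 and 0 in Ptch1Prrx1. It was the member without a difference between the groups in its summed counts, with a ratio of 1.00 and an interval of 0.0128 to 78.7, and a difference was not detectable at this depth. In all, 11 of the 14 members were above every control in all 3 mutant libraries, and *Sprr2d*, *Sprr2k* and *Sprr4* overlapped. Over all 17784 genes, 13% were higher in this way. The family was chosen for its higher mutant values, so nothing is read from this difference. In *Sprr2b* and *Sprr2e* the separation rested on 1 expected count in a mutant library against 0 in the controls. Among the mutant libraries, each of the 14 had its highest count in replicate 1, although for *Sprr4* this was 1 count, as in control replicate 3. In Ptch1Prrx1 replicate 1, 12 members had at least 10 counts, against 4 members in each of replicates 2 and 3 and 1 in each control.

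Ordered by TPM, the control epithelium had *Sprr1a* at 51.9 to 120, followed by *Sprr1b* at 0.28 to 0.68 and *Sprr2i* at 0.19 to 0.36, which overlapped. All other members were below these on average, at 0 in at least 1 control library except for *Sprr2a1* and *Sprr2a2*. In Ptch1Prrx1 the order was *Sprr1a*, *Sprr1b* and then *Sprr3*, with no overlap from one to the next. *Sprr3* at 2.38 to 33.3 TPM, *Sprr2f* at 1.30 to 31.5 and *Sprr2h* at 0.60 to 24.6 overlapped. The summed TPM of the family went from 121, 53.5 and 62.6 in the controls, or at most 0.0121% of all TPM, to 4052, 1501 and 1850 in Ptch1Prrx1, or 0.405%, 0.150% and 0.185%. The TPM of *Sprr2a1* and *Sprr2a2* are low for their counts, since in replicate 1 it took 34.4 counts to give 1 TPM against 5.51 to 7.90 for the other *Sprr2* genes. In bulk RNA, a higher level may reflect more cells expressing a gene or more RNA per cell, and the 2 cannot be told apart.

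The neighbours of the family in the epidermal differentiation complex were examined next. Between *Pglyrp3* and *S100a10*, 54 protein-coding genes are listed by RefSeq and 42 of them have values, 28 of which lie outside the family. Of these 28, 11 passed the filter, 7 were called higher (*Ivl*, *Kprp*, *Lce3a*, *Lce3c*, *Crct1*, *Flg* and *Rptn*) and 0 were called lower in edgeR's test, against 2.34% and 0.892% of all genes tested. None of these 7 kept its call without control replicate 2. *Flg*, *Rptn* and *Lce3c*, with at most 7.95 normalized counts in a control, passed the filter through their mutant libraries alone. Nothing is therefore read from the comparison with all genes tested. At the other end of the scale, *S100a11* and *S100a10*, which were abundant in all libraries, were not called, with log2 fold changes of 0.40 and 0.30.

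**Figure D5:**
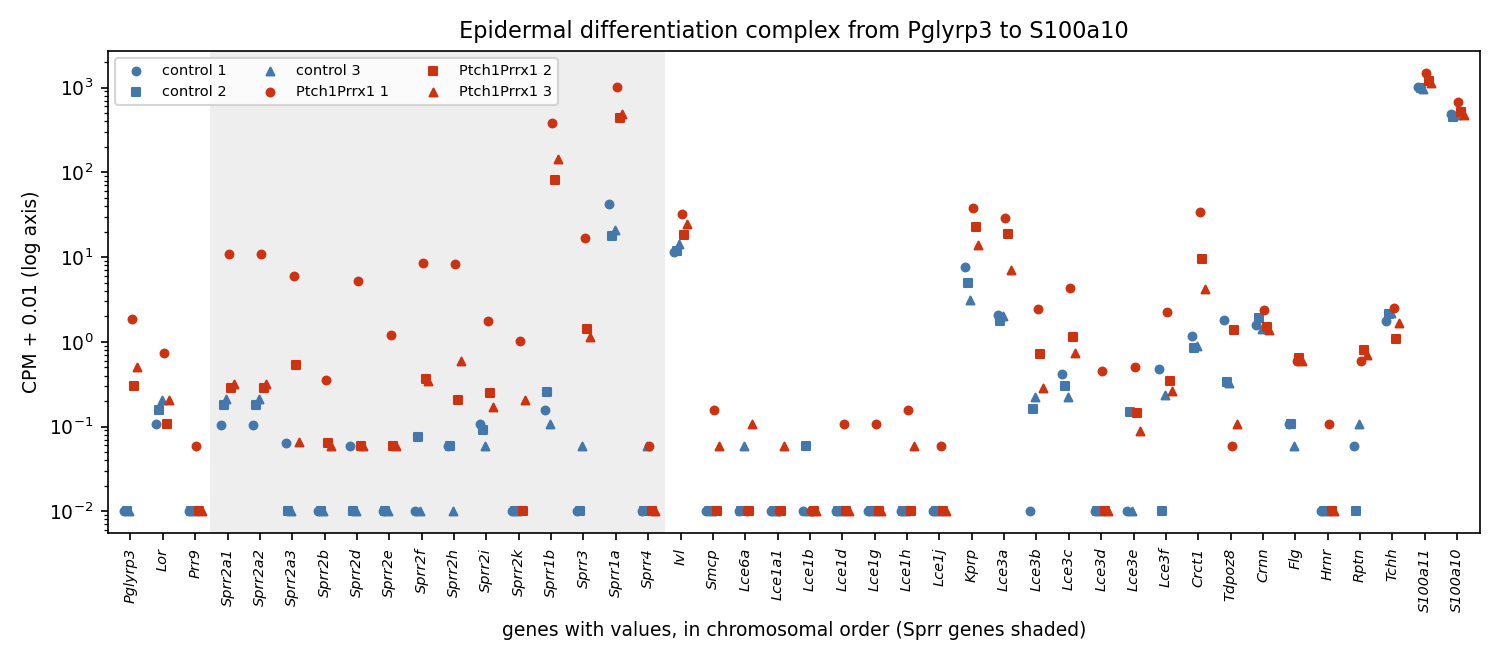
CPM (expected counts per 1e6 of the library) plus 0.01 (log axis) of the 42 genes with values from *Pglyrp3* to *S100a10*, in chromosomal order (horizontal axis), in the 3 control (blue) and 3 Ptch1Prrx1 (red) libraries, with the *Sprr* genes shaded. Higher mutant values appear in the shaded block and also at *Ivl*, *Kprp*, *Lce3a* and *Crct1*, while *S100a11* and *S100a10* lie close together in all libraries.

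The partners of the Sprr proteins in the envelope were compared as a list of 35 genes other than *Sprr*. Of the 19 that passed the filter, 10 were called higher and 0 lower, against 2.34% and 0.892% of all genes tested, with a median log2 fold change of 1.06 against -0.01 for all genes tested. Since *Flg*, *Rptn* and *Lce3c* passed the filter through their mutant libraries alone, nothing is read from these differences. *Cnfn*, which encodes cornifelin, had 124, 61.9 and 79.6 normalized counts in the controls and 5033, 1962 and 1920 in Ptch1Prrx1 (log2 fold change 5.07, standard error 0.49, edgeR adjusted p = 0.00436). *Ivl*, the involucrin gene beside *Sprr4*, had 232, 236 and 283 against 681, 383 and 499 (1.06, standard error 0.21, edgeR adjusted p = 0.0212), without overlap, but lost its call without Ptch1Prrx1 replicate 1 (0.82) and without control replicate 1 or 2 (1.00 and 1.01). *Flg*, *Rptn*, *Lce3a* and *Kprp*, other precursors or components of the keratinized envelope, rose by log2 fold changes of 2.85, 3.70, 3.28 and 2.30. The first 2 of these remained low, with at most 16.4 normalized counts in any library, against 35.4 to 609 for *Lce3a*. *Evpl* and *Ppl*, the plakins that form the scaffold of the envelope, were abundant in all samples and were not called (-0.05 and 0.21). The number called was 7 without Ptch1Prrx1 replicate 1, and 5, 1 and 5 without control replicates 1, 2 and 3, where the 1 was *Cnfn*.

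Of the enzymes that build the envelope, 7 of 8 passed the filter and 1 was called higher, against 2.34% of all genes tested. This was *Alox12b*, a lipoxygenase of the epidermal lipid envelope, at 45.7, 6.88 and 19.4 normalized counts in the controls and 271, 174 and 85.6 in Ptch1Prrx1 (log2 fold change 2.88, standard error 0.62, edgeR adjusted p = 0.0278). Its controls alone would not have passed the filter, so nothing is read from the comparison with all genes tested. No enzyme of the list was called without Ptch1Prrx1 replicate 1 or 2 or without control replicate 2 or 3. With at least 10 counts in every sample, 5 enzymes were tested and 0 were called. *Tgm1*, the transglutaminase that crosslinks Sprr proteins, had 1703, 938 and 817 against 2470, 2008 and 1814. The groups did not overlap, but the gene did not pass the test (0.86, standard error 0.27, edgeR adjusted p = 0.0682). In the S100 genes of the same chromosomal region, 1 of 10 tested was called higher, against 2.34% of all genes tested. This was *S100a7a* (2.49, standard error 0.39, edgeR adjusted p = 0.0125). *S100a8* and *S100a9*, calgranulin genes that did not pass the filter, had 275 and 1797 normalized counts in Ptch1Prrx1 replicate 1 and at most 2.99 and 30.9 in any other library, so that, like the *Sprr2* genes, they had most of their counts in 1 library.

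Among 33 tested transcription factors with known ties to *Sprr* or envelope gene control, 5 were called higher and 0 lower, against 2.34% and 0.892% of all genes tested. Their median log2 fold change was 0.35, against -0.01 for all genes tested. The number called was 3 without Ptch1Prrx1 replicate 1, and 3, 1 and 3 without control replicates 1, 2 and 3. *Jun*, a component of AP-1, had 1741, 1827 and 1767 normalized counts in the controls and 13436, 9411 and 6609 in Ptch1Prrx1 (2.47, standard error 0.24, edgeR adjusted p = 0.00436). *Fosb*, *Fos*, *Maf* and *Ets1* were also called, with log2 fold changes of 2.57, 1.26, 2.43 and 1.16. *Maf*, at 4.97, 3.93 and 14.6 normalized counts in the controls and 67.2, 27.7 and 33.8 in Ptch1Prrx1, passed the filter through its mutant libraries. The comparison with all genes tested is therefore not read further. *Fosl1*, a Fos-related partner of Jun, had 56.6, 0.983 and 3.88 normalized counts in the controls and 788, 53.4 and 377 in Ptch1Prrx1. Its groups overlapped, since control replicate 1 was above mutant replicate 2, and it did not pass the test (4.31, standard error 1.18, edgeR adjusted p = 0.0512). *Klf4*, a factor of the differentiating epithelium, was abundant in both groups, at 32291, 32307 and 30922 against 37116, 38848 and 32677, and was not called (0.19, standard error 0.09, edgeR adjusted p = 0.174). *Ehf*, *Elf3* and *Grhl1* were among the factors with small changes, at log2 fold changes of -0.04, 0.15 and 0.04. *Junb*, *Elf5* and *Pou2f3*, a POU-domain factor, were at 0.73, 0.83 and -0.67 (edgeR adjusted p = 0.0107, 0.0233 and 0.0192). These 3 were below the fold change required for a call. Of the 33 factors, 25 had a log2 fold change above 0, where the median of all genes tested was -0.01.

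Keratins of the wounded or hyperproliferative epithelium were the nearest comparison outside the envelope. *Krt16* had 297, 79.6 and 225 normalized counts in the controls and 42753, 14425 and 10096 in Ptch1Prrx1 (6.80, standard error 0.75, edgeR adjusted p = 0.00647). *Krt17* was also called (2.80), and *Krt6a* and *Krt6b* were not (0.86 and 0.48). All 4 keratins were highest in replicate 1. Among the called genes named from these lists, *Cnfn*, *Jun* and *Krt16* kept their call in every alternative in which they were tested, and each of the others lost it when control replicate 2 was left out.

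Markers of other cell types were compared because the cells of the limbus, the conjunctiva and the skin of the lid lie close to the cornea. Of 5 tested conjunctival genes, 0 were called, but their summed TPM ranged from 1415 to 2366 in the controls and from 2208 to 4755 in Ptch1Prrx1, with the highest value in replicate 1. *Krt4*, a keratin of the conjunctiva, had 2129, 2957 and 4292 normalized counts in the controls and 19037, 3428 and 10192 in Ptch1Prrx1. Its log2 fold change of 1.80 was the highest of the tested conjunctival genes, with *Krt13*, *Krt19*, *Krt7* and *Agr2* at 0.68, 1.46, 0.71 and -0.32. Of 6 limbal genes, *Krt14* and *Cdh13* were called higher (log2 fold changes 2.81 and 1.06), against 2.34% of all genes tested. *Krt15*, *Ifitm3*, *Gpha2* and *Trp63* were not (0.99, 0.68, 0.26 and -0.03). The limbal list summed to 1727 to 2945 TPM in the controls against 5080 to 9634 in Ptch1Prrx1. *Krt14* gave 534, 535 and 644 TPM of the control sums and 5798, 3254 and 2420 of the mutant sums. The epidermal list had 1 of 5 tested genes called higher (*Flg*), against 2.34% of all genes tested. It summed to 12.6 to 17.1 TPM in the controls and 13.4 to 37.2 in Ptch1Prrx1, again highest in replicate 1. *Krtdap*, which did not pass the filter, gave 20.9 TPM of the sum in replicate 1 and at most 1.00 in any other library. *Flg* was at 0.01 to 0.10 TPM over the libraries. *Krt1* and *Krt10* of the epidermis had log2 fold changes of -0.64 and 0.25 and were not called. Immune genes summed to 120 to 158 TPM against 151 to 200, and stromal genes to 3.09 to 52.7 against 2.51 to 6.67. The 52.7 was that of control replicate 3. *Col1a2* was at 1.69, 0.91 and 26.0 TPM in control replicates 1, 2 and 3 and at 2.00, 2.62 and 0.08 in Ptch1Prrx1. *Vim* was at 2.23, 1.71 and 20.8 TPM in the controls and at 2.79, 2.64 and 0.96 in Ptch1Prrx1. Of the corneal epithelial markers, 0 of 7 were called. *Pax6* and *Tkt* (log2 fold changes -0.22 and -0.31) were lower in every mutant library than in every control, and the rest overlapped. The part of these other cells in the *Sprr* values was not tested.

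The libraries also differed within a group, and the family followed this in the mutants but only in part in the controls. Control replicate 1 had the highest *Sprr1a* of the controls. *Sprr1b* (3, 5 and 2 expected counts) and the *Sprr2* sum (8.99, 11 and 9.16) were instead highest in control replicate 2. Control replicate 1 had the highest control value for 44 of 73 tested genes in the envelope, enzyme, S100, factor and keratin lists (60.3%), against 35.3% of all 12999 genes tested. Mutant replicate 1 had the highest value of the 3 mutants for 51 of the 73 (69.9%), against 40.9% of all genes tested and 82.2% of those called higher. What sets these libraries apart was not tested.

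Finally, the genes whose log2 normalized counts over the 6 libraries were most like those of *Sprr1b* and *Sprr1a* were identified among 10321 genes that averaged 100 or more normalized counts. For *Sprr1b* they included *Nlgn2*, *Clspn*, *Pgs1* and *1700017B05Rik*, with Pearson r between 0.996 and 0.998, and 31 genes outside the family were above 0.99. The log2 fold changes of these 4 genes lay between 0.57 and 0.80, and none of the 4 was called. For *Sprr1a* they were *Has1*, *Atg9b*, *Cnfn*, *Twf1* and *Errfi1*, with the highest r at 0.999, and 32 genes were above 0.99. Of these 5, *Cnfn* and *Errfi1* were called (5.07 and 1.23). *Sprr1a* and *Sprr1b* had an r of 0.98 with each other, and *Sprr3* an r of 0.94 with *Sprr1b* and 0.95 with *Sprr1a*. These coefficients are over 6 libraries in 2 groups that do not overlap, so a high value mostly restates the split between the groups, and it is given as a description.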

How the data were processed

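Corneal epithelial RNA was measured in 6 samples, grouped by the labels. The submitters' processing notes name Bowtie2 2.2.5, RSEM 1.2.12 and build mm9. The authors deposited expected counts, which RSEM estimates for each gene and which are not scaled for depth. The authors also deposited TPM, which correct for gene length and depth within a sample. The table's 17784 rows were all used, and 0 columns of other samples were used. The authors' FPKM columns and their group averages were not used.

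Expected counts were rounded to whole numbers and filtered with filterByExpr, scaled by TMM and tested with the quasi-likelihood test of edgeR 4.0.16 in R 4.3.3, after the procedure was tested on simulated data. Calls needed an adjusted p (Benjamini-Hochberg) no higher than 0.05 and a log2 fold change of 1 or more in either direction. The test behind the authors' adjusted P for differential expression is not named in their methods. Ratios of summed counts were scaled for depth, with exact 95% conditional binomial intervals. An exact permutation test of 3 against 3 cannot give a p below 0.1. Within groups, pairs of samples differed beyond counting noise (chi-square per degree of freedom 10.1 to 37.8).

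The members and gene lists were chosen with earlier results of these data known. All *Sprr* genes are named, with *Ptch1*, *Jun*, *Fosl1*, *Klf4*, *Tgm1*, *Ivl*, up to 6 called genes of each list by smallest p, the 5 genes most like *Sprr1b* and *Sprr1a*, and cell type markers. Not every gene that meets this rule is reported here. *Crct1*, *Lce3c*, *Evpl*, *Ppl*, *Ehf*, *Elf3*, *Grhl1*, *Junb*, *Elf5*, *Pou2f3*, *S100a8*, *S100a9*, *S100a10*, *S100a11*, *Krt6a*, *Krt6b*, *Krtdap*, *Col1a2* and *Vim* were named after their values were seen. Alternatives were DESeq2 1.42.0, limma 3.58.1 (voom, and log2(TPM + 1) or log2(TPM + 0.1) where the mean TPM reached 1), other size factors, filters of at least 1 or 10 counts, no minimum fold change, a replicate block, and each sample left out.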

Additional observations from a re-analysis of the deposited data

How the results depend on the processing

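*Sprr1a*, *Sprr1b* and the *Sprr1* sum kept their direction and call in every alternative in which they were tested. The number of *Sprr* genes called was 3, and it was 5 with DESeq2, which gave an adjusted p for 5 members, 1 with at least 10 counts in every sample, which left 1 member, and 2 to 4 with 1 library left out. *Sprr3* (8.23) lost its call with limma-voom (6.46) and on log2(TPM + 1) (2.90), and when control replicate 1, 2 or 3 was left out (7.78, 7.78 and 10.07), with 5.87 to 10.07 over all libraries left out, and DESeq2 gave it no adjusted p. The *Sprr2* sum (5.42, not called) was called with the replicate block (4.67) and without Ptch1Prrx1 replicate 1, 2 or 3 (2.15, 5.95 and 5.96), with 2.15 to 5.96 over all libraries left out. Of the 73 tested genes of the 5 lists, 19 were called, against 2.34% of all genes tested called higher and 0.892% called lower. Nothing is read from this difference. The number was 12 on log2(TPM + 1), and 3 (without control replicate 2) to 19 with 1 library left out, with 12 and 11 without control replicates 1 and 3. The cause was not tested.

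Replicate numbers are shared by the groups, but same-numbered samples deviated together with correlations of 0.10, -0.04 and 0.01, and 1 of 3 Ptch1Prrx1 samples correlated best with its own number. With the replicate block, the log2 fold changes were 4.62 for *Sprr1a* and 10.24 for *Sprr1b*, and 3 members and 19 list genes were called. Members with few counts limit the family: 9 had at most 3 counts over the control libraries, so their ratios have wide intervals.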
